A study of Homo sapiens with 8 samples.

Results

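The protein phosphatase 2A (PP2A) and protein phosphatase 4 (PP4) knockouts are the 5 genes of these enzymes that were taken by name from a pooled knockout screen: PPP2CA, PPP4C, PPP4R2, SMEK1 and SMEK2. They were 5 of the 779 genes tested and held 50 of the 7856 sgRNAs, 10 for each gene. All 5 were measured, and the main tests used no filter on low counts. SMEK1 and SMEK2 are older symbols, which RefSeq lists as PPP4R3A and PPP4R3B.

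PP2A and PP4 are related serine/threonine phosphatases that remove phosphate from many proteins, chromatin proteins among them. PPP2CA encodes the alpha isoform of the PP2A catalytic subunit. In PP4, PPP4C is the catalytic subunit, PPP4R2 is a regulatory subunit, and SMEK1 or SMEK2 joins them as a further subunit, so that the last pair are alternative partners of the same core. Both phosphatases act on the phosphorylated histone H2AX that marks DNA breaks, and PP2A also opposes mitotic kinases. Taxol (paclitaxel) stabilises microtubules and holds cells in mitosis.

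The screen was made in T1-160, a Taxol-resistant derivative of SUM159PT, a line of triple-negative breast cancer. All groups carried Cas9 and the lentiviral EPIKOL library of sgRNAs against chromatin genes, and all had been selected with puromycin in the presence of verapamil, an inhibitor of drug efflux. The AP group (replicates 1 and 3) was collected right after this selection, and the DMSO and Taxol groups (3 replicates each) after 16 population doublings in vehicle or in 160 nM Taxol. The sgRNAs were counted in genomic DNA, so a value gives the abundance of cells that carry a sgRNA, while the loss of the protein was not measured. All data are from 1 resistant line. The labels do not say whether replicates were infected or cultured separately, so differences among the libraries of a group may be technical. Of the gene tests described below, limma sets a change against that spread. RRA rests on the ranks of a gene's sgRNAs, and the spread enters it only through the ranking. Neither test covers variation beyond these libraries.

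Library depth was 2045984 to 11771417 reads, or 260 to 1498 reads per sgRNA. The least abundant of the 50 sgRNAs had 27 reads in Taxol 3 and 178 reads in AP 1, the lowest and the highest such minimum over the 8 libraries. In the Taxol libraries, 6.23% to 10.6% of the counts belonged to just 10 sgRNAs, compared with 2.80% or less elsewhere. Taxol 2 and Taxol 3 were also the shallowest libraries. Knockouts of ABCB1, the efflux pump and positive control of the drug arm, stood at 215, 285 and 273 normalized counts in Taxol 1 to 3 and at 549, 553 and 338 in DMSO 1 to 3 (geometric mean over its sgRNAs). Their depletion was -0.87 ± 0.33 on the log2 scale (SD over libraries, 3 a group; adjusted exact RRA p = 0.0287), although limma on gene means gave an adjusted p of 0.193. The RRA call ended without DMSO 1, DMSO 2, Taxol 1 or Taxol 3 (adjusted exact RRA p = 0.123, 0.309, 0.0827 and 0.0670) and held without DMSO 3 or Taxol 2 (0.0341 and 0.00716). With the replicate number as a block, limma called ABCB1 lower (adjusted p = 0.0116).

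Both gene tests work over all genes. Robust rank aggregation (RRA) asks whether the sgRNAs of a gene lie near 1 end of the ranking of all sgRNAs, and limma on gene means sets the mean over the sgRNAs of log2(normalized count + 1) against the spread between libraries. A gene was called at an adjusted p under 0.05, with adjustment over all 779 genes. The table of each comparison was scaled on its own, so levels of the same library differ between comparisons. The 80 non-targeting sgRNAs, the background of the screen, had a mean log2 fold change of 0.16 when Taxol was set against DMSO, 0.40 when DMSO was set against AP and 0.60 when Taxol was. Centring on their median would shift all log2 fold changes by -0.17, -0.31 and -0.53. On the scale used here the median of all 779 genes was 0.03, 0.15 and 0.20, and the values below are to be read against these medians.

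**Figure D1:**
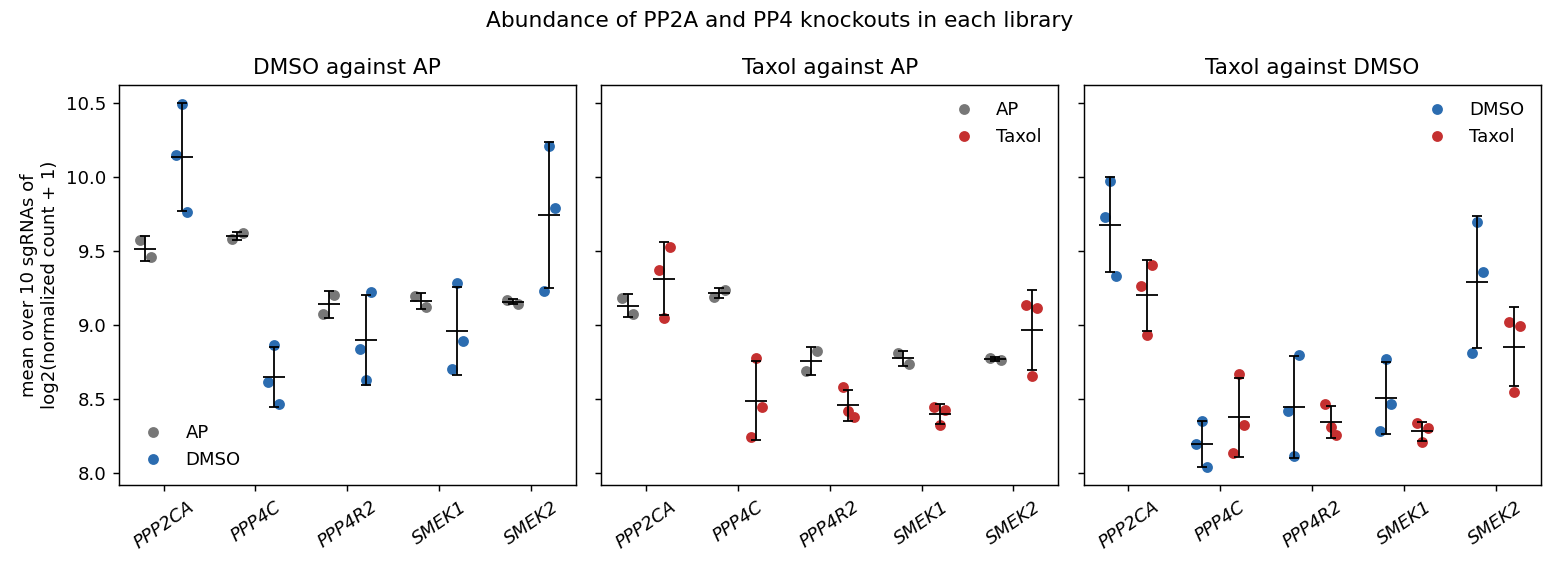
Level of each gene (x axis) in each library, as the log2(normalized count + 1) averaged over its 10 sgRNAs, with 1 panel per comparison. Points are libraries (grey AP, blue DMSO, red Taxol) and black marks give the group mean and its SD (n = 2 for AP, n = 3 for DMSO and Taxol). PPP4C lay lower in every DMSO and every Taxol library than in both AP libraries, while for Taxol against DMSO the groups overlapped for all 5 genes.

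Growth in DMSO asked which knockouts were lost or gained without the drug. Knockouts of PPP4C, the catalytic subunit of PP4, were depleted. They stood at 764 and 785 normalized counts in AP 1 and AP 3 (geometric mean over the 10 sgRNAs), and at 391, 465 and 352 in DMSO 1 to 3. Every DMSO library lay below both AP libraries, at 0.517 of the AP level on average. The same held for 14.1% of all genes. The log2 fold change was -0.95 ± 0.16 (SD between libraries, 95% interval -1.40 to -0.50, n = 3 and 2), and it was the 8th lowest of 779 genes. PPP4C was called depleted by both tests, with an adjusted exact RRA p of 0.0374 and an adjusted p of 0.0280 from limma on gene means. It was the only gene of the 5 with a call in this comparison. Of all genes, RRA called 2.31% depleted and 0.128% enriched, and limma called 1.41% lower and 0.77% higher. At an unadjusted p under 0.05, RRA found 11.6% depleted and limma 8.73% lower. Leaving out AP 3 ended the RRA call (adjusted p = 0.0651), and leaving out AP 1, AP 3, DMSO 1 or DMSO 3 ended the limma call, with an adjusted p of 0.518, 0.177, 0.107 and 0.0959 in that order. The fold change was between -1.06 and -0.86 without any 1 library.

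The depletion of PPP4C was carried by most of its sgRNAs but not by its most abundant one. Of the 10 sgRNAs, 8 were lower in DMSO than in AP, and the changes ranged from -2.20 to 0.62 on the log2 scale. The largest was that of epikol_v2_4648, at 597 and 767 normalized counts in AP and 149, 169 and 125 in DMSO. The sgRNA epikol_v2_4643 was at 510 and 488 in AP and at 127, 134 and 135 in DMSO. Both had all DMSO libraries below both AP libraries, with log2 fold changes of -2.20 and -1.91. They were picked as the lowest of the 10, and the share of all sgRNAs that separate in this way was not counted. In all, 4 sgRNAs of PPP4C were lower at an unadjusted p under 0.05. Over the 5 genes it was 5 of 50 lower and 2 higher, against 3.63% and 3.16% of all sgRNAs, and none of 7856 sgRNAs passed after adjustment. By contrast, epikol_v2_4649 was at 6639 and 12962 in AP and at 10484, 14000 and 10648 in DMSO. This sgRNA alone held 53.1% and 69.9% of the PPP4C reads in AP 1 and AP 3, 73.6% to 79.6% in the DMSO libraries and 80.0% to 85.4% in the Taxol libraries. When the reads of a gene were summed before the test (limma voom), the log2 fold change of PPP4C was -0.05 (adjusted p = 0.926), with no call. When the most abundant sgRNA of each gene was left out, it was -1.09 and both calls held (adjusted p = 0.0332 by exact RRA and 0.0208 by limma). Over all alternatives the adjusted p ranged from 0.0108 to 0.0651 for RRA and from 3.1e-04 to 0.926 for limma.

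**Figure D2:**
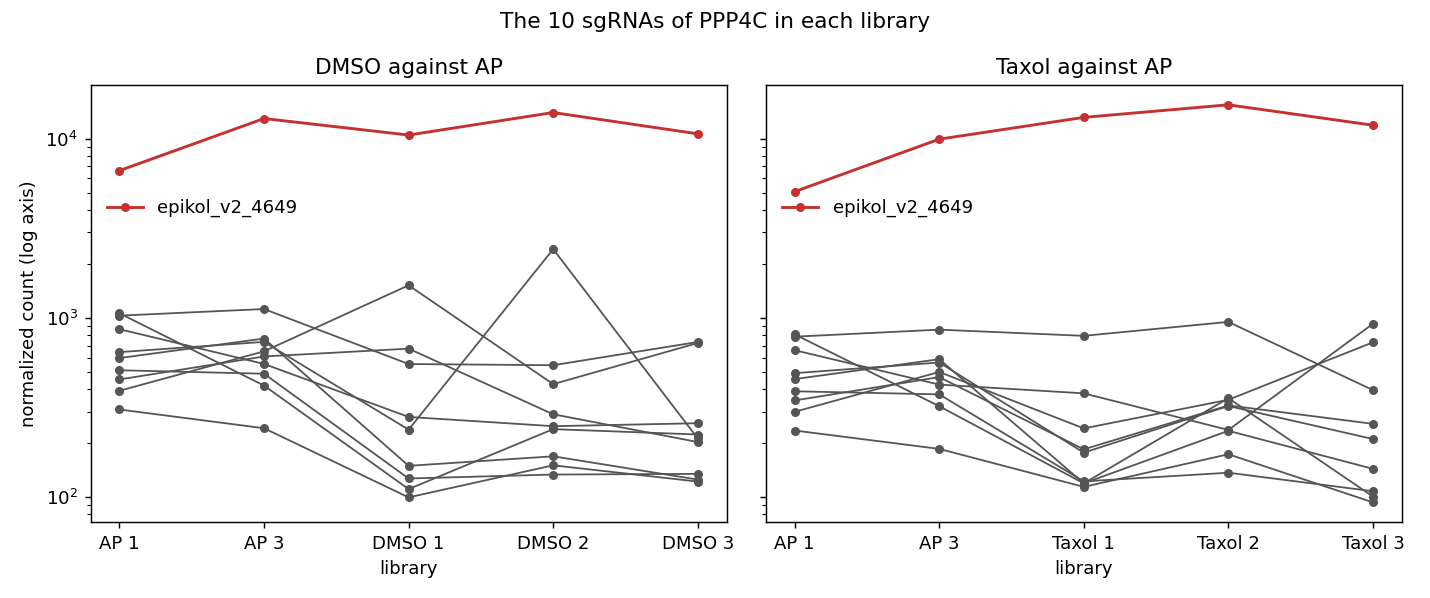
Normalized count (log axis) of the 10 sgRNAs of PPP4C in each library, in the table of DMSO and AP (left) and in that of Taxol and AP (right). Each line joins the values of 1 sgRNA, red for epikol_v2_4649, which was at 6639 or more in all libraries on the left, and grey for the other sgRNAs, which were at 2421 or less there.

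The regulatory subunits of PP4 did not show the same values in DMSO. Knockouts of PPP4R2 stood at 539 and 589 normalized counts in AP and at 457, 395 and 597 in DMSO, with 1 DMSO library above both AP libraries. The log2 fold change was -0.24 ± 0.25 (95% interval -0.72 to 0.23), with 6 of 10 sgRNAs lower, and the sign turned when reads were summed (0.11). Its lowest sgRNA, epikol_v2_4655, was at 237 and 228 in AP and at 61.0, 75.6 and 69.7 in DMSO. Knockouts of SMEK1 were at 586 and 555 in AP and at 415, 623 and 474 in DMSO. The groups overlapped again, at -0.20 ± 0.24 (95% interval -0.67 to 0.27).

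SMEK2, the alternative to SMEK1, lay on the opposite side. Its knockouts stood at 574 and 564 normalized counts in AP and at 600, 1183 and 883 in DMSO. All DMSO libraries lay above both AP libraries, DMSO 1 by little, and 9 of 10 sgRNAs were higher. The log2 fold change was 0.59 ± 0.40 (95% interval 0.07 to 1.11), which passed the unadjusted threshold only (limma p = 0.0294, adjusted p = 0.194; exact RRA p = 0.0108, adjusted p = 0.302). It was 0.35 without DMSO 2. The count of 9 of 10 is to be read beside the 80 non-targeting sgRNAs, of which only 18 were below 0 in this comparison.

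PPP2CA, the catalytic subunit of PP2A, had nearly the same value as SMEK2. Its knockouts were at 761 and 702 normalized counts in AP and at 1133, 1437 and 866 in DMSO, again with all DMSO libraries above both AP libraries. The log2 fold change was 0.62 ± 0.30 (95% interval 0.13 to 1.10), with 9 of 10 sgRNAs higher (limma p = 0.0158, adjusted p = 0.170; exact RRA p = 0.0397, adjusted p = 0.521). At an unadjusted p under 0.05, 8.47% of all genes were enriched by RRA and 12.5% were higher by limma, and in 29.3% all DMSO libraries lay above both AP libraries. Of the 80 non-targeting sgRNAs, only 18 were below 0 in DMSO against AP, so most of them were higher as well. Centred on the non-targeting sgRNAs, PPP2CA was at 0.31 and SMEK2 at 0.28. Neither gene was called under any alternative.

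**Figure D3:**
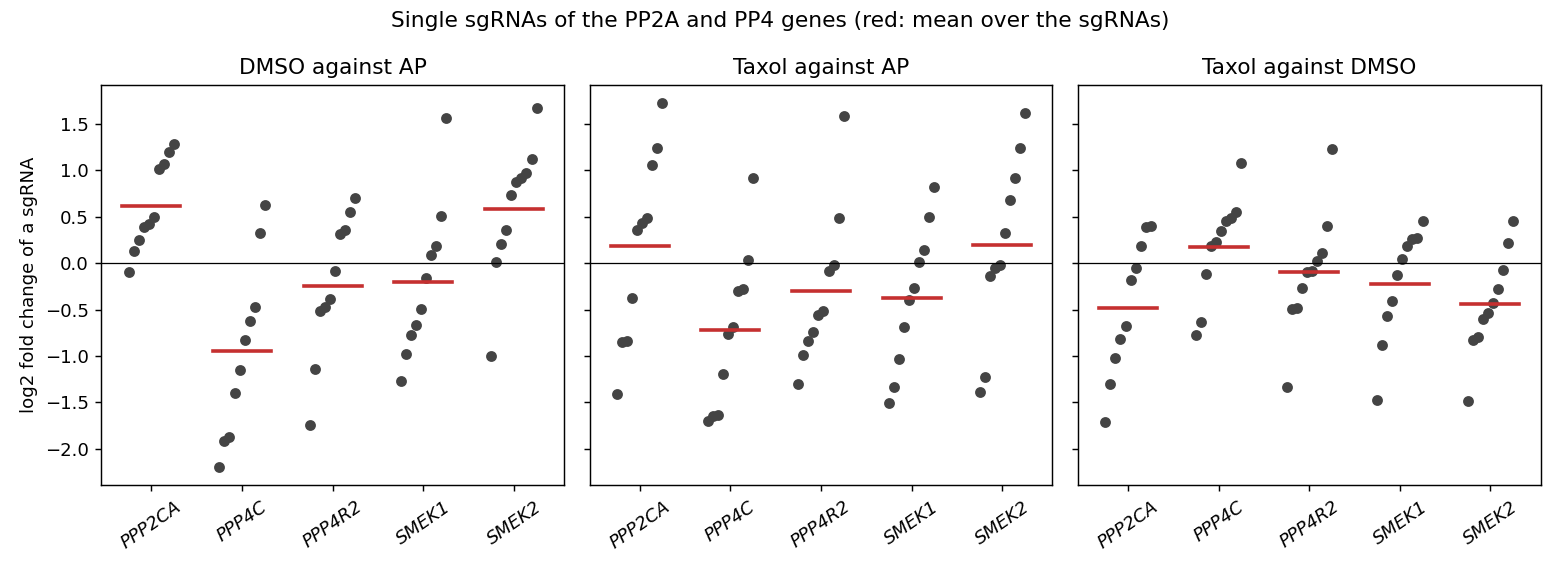
The 10 sgRNAs of each gene (points, sorted) by their log2 fold change, with 1 panel per comparison, and the mean over the sgRNAs as a red bar. In DMSO against AP, 8 sgRNAs of PPP4C lay below 0, and 9 each of PPP2CA and SMEK2 lay above it. Of the 80 non-targeting sgRNAs, not shown, 18 lay below 0 in that comparison.

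Growth in Taxol against the same AP libraries asked which knockouts changed under the drug since the start. The AP libraries are shared with the comparison above, so the 2 are not independent. PPP4C was again depleted by RRA. It stood at 583 and 603 normalized counts in AP and at 302, 437 and 347 in Taxol 1 to 3, with all Taxol libraries below both AP libraries. The log2 fold change was -0.73 ± 0.22 (95% interval -1.19 to -0.26, n = 3 and 2), and 8 of 10 sgRNAs were lower. The adjusted exact RRA p was 0.0438, while limma on gene means gave an adjusted p of 0.101 and no call. RRA called 4.88% of all genes depleted and 1.41% enriched, while limma called 0% lower and 0.128% higher. At an unadjusted limma threshold of 0.05, PPP4C was among the 6.29% that were lower, and 16.9% were higher. The RRA call ended without AP 1, AP 3, Taxol 1 or Taxol 3 (adjusted p = 0.0689, 0.170, 0.110 and 0.102), and held without Taxol 2 (0.0172). Summed reads, of which epikol_v2_4649 held most, gave 0.47 (adjusted p = 0.623), and without the most abundant sgRNA of each gene the value was -0.91 (adjusted p = 0.0359 by exact RRA and 0.0565 by limma). Over all alternatives the adjusted p ranged from 0.0172 to 0.170 for RRA and from 3.3e-04 to 0.744 for limma.

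In Taxol, the knockouts of PPP4R2 and SMEK1 also lay below AP in every library, without a call. PPP4R2 was at 411 and 451 normalized counts in AP and at 381, 341 and 332 in Taxol, and SMEK1 was at 447 and 426 in AP and at 348, 319 and 342 in Taxol. With PPP4C, 3 of the 5 genes thus had all Taxol libraries below both AP libraries, as had 14.5% of all genes. For 0 of the 5 did all Taxol libraries lie above, against 32.3% of all genes. The log2 fold changes were -0.30 ± 0.10 for PPP4R2 and -0.38 ± 0.06 for SMEK1. For PPP4R2, 8 of 10 sgRNAs were lower, and RRA gave an exact p of 0.0277 and an adjusted p of 0.257. At an unadjusted p under 0.05, RRA found 13% of all genes depleted. For SMEK1 the adjusted p was 0.249 by limma. Both were called lower by limma when all values were centred on the non-targeting sgRNAs, at -0.82 for PPP4R2 (adjusted p = 0.0245) and -0.90 for SMEK1 (adjusted p = 0.0133). On that scale 150 genes were called lower in all, against 0 on the main scale. Over all alternatives the adjusted p from limma ranged from 0.0245 to 0.995 for PPP4R2 and from 0.0133 to 0.933 for SMEK1.

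PPP2CA and SMEK2 had no common direction among their sgRNAs in Taxol against AP. PPP2CA was at 581 and 538 normalized counts in AP and at 661, 527 and 735 in Taxol. SMEK2 was at 438 and 433 in AP and at 560, 402 and 553 in Taxol. Both groups overlapped, with log2 fold changes of 0.18 ± 0.20 and 0.20 ± 0.22, near the median of all genes. Centring on the non-targeting sgRNAs turned the sign of both, to -0.34 and -0.33. The sgRNAs of PPP2CA ranged from -1.42 to 1.72 and those of SMEK2 from -1.39 to 1.62. Over the 5 genes, 10 of 50 sgRNAs were lower than in AP and 1 higher at an unadjusted p under 0.05, against 3.9% and 2.2% of all sgRNAs, and none after adjustment. The SDs over sgRNAs, 1.02 and 0.98, lay above the median SD of all genes, 0.68.

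Some sgRNAs of these genes were very high in a single Taxol library. Of PPP4R2, epikol_v2_4652 was at 14678 normalized counts in Taxol 1, but at 1248 and 1124 in Taxol 2 and Taxol 3. It held 82.8% of the PPP4R2 reads in Taxol 1 and 9.77% to 33.5% in the other libraries. Of PPP2CA, epikol_v2_4635 was at 7250 in Taxol 3, against 524 and 1260 in the other Taxol libraries, and epikol_v2_4640 was at 5261 in Taxol 1, against 808 and 664. Of SMEK2, epikol_v2_5862 was at 4847 in Taxol 3, against 1234 and 640. Values high in a single library also occurred in DMSO, here in the table of DMSO and AP. Of PPP4C, epikol_v2_4647 was at 2421 in DMSO 2, against 238 and 212 in the other DMSO libraries. Likewise, epikol_v2_5870 of SMEK2 was at 3735 in DMSO 2, against 813 and 922. All sgRNAs named in this paragraph were chosen after their values were seen. Leaving out the most abundant sgRNA of each gene removed epikol_v2_4652, epikol_v2_4635 and epikol_v2_5862 from the table of Taxol and AP, while epikol_v2_4640 stayed in. The log2 fold changes against AP were then -0.51 for PPP4R2, 0.06 for PPP2CA and 0.04 for SMEK2, and the calls were as before.

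Taxol against DMSO asked which knockouts were more or less abundant under the drug than in vehicle. Its libraries are those set against AP above, so this comparison is not independent of the earlier ones. None of the 5 genes was called, and the Taxol and DMSO libraries overlapped for each of them. RRA called 0.257% of all genes depleted and 0.128% enriched, and limma called 0% lower and 0.128% higher. With the replicate number as a block, limma called 1 gene lower and 2 higher, none of them among the 5. PPP2CA and SMEK2 each had an adjusted p of 0.665 there. At an unadjusted p under 0.05, limma counted 0 of the 5 genes, against 1.54% lower and 4.62% higher of all genes. RRA counted 1 depleted and 0 enriched, against 4.62% and 6.68%. Among all genes, 4.49% had every Taxol library below every DMSO library and 6.29% had every one above.

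That gene was PPP2CA. It stood at 847, 1005 and 643 normalized counts in DMSO 1 to 3 and at 612, 488 and 675 in Taxol 1 to 3, so that only DMSO 3 fell within the range of the Taxol libraries. The log2 fold change was -0.48 ± 0.28 (95% interval -0.999 to 0.04, n = 3 per group), the 13th lowest of 779. RRA gave an exact p of 0.0436 and an adjusted p of 0.959, and limma gave p = 0.0695 (adjusted p = 0.839). The value was -0.08 on summed reads and -0.76 with the median over sgRNAs, neither with a call. Of its 10 sgRNAs, 7 were lower. The lowest, epikol_v2_4633, was at 1473, 466 and 538 in DMSO and at 170, 258 and 238 in Taxol (log2 fold change -1.71). It was picked as the most extreme of the 10, and it did not pass after adjustment over all sgRNAs. The share of all sgRNAs whose Taxol and DMSO libraries do not overlap was not counted, so its separation has no background.

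SMEK2 followed at -0.44 ± 0.37 (95% interval -0.94 to 0.07), the 20th lowest, with 8 of 10 sgRNAs lower. Its knockouts were at 448, 827 and 656 normalized counts in DMSO and at 519, 372 and 508 in Taxol. DMSO 1 lay inside the range of the Taxol libraries, and the value was -0.67 without DMSO 1, -0.23 without DMSO 2 and -0.28 on summed reads. The order of SMEK2 and PPP2CA turned without DMSO 1, where PPP2CA was at -0.45, and on summed reads. The sgRNA epikol_v2_5864 of SMEK2 was the lowest, at 638, 261 and 343 in DMSO and at 133, 147 and 132 in Taxol. Set against AP, PPP2CA was at 0.62 in DMSO and 0.18 in Taxol, and SMEK2 at 0.59 and 0.20. The Taxol values were near the median of all genes (0.20), so neither gene stood out as lost in Taxol since the start. The low values in Taxol against DMSO go with high values in DMSO against AP, and neither set was called.

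For the other subunits of PP4, the mean over sgRNAs lay closer to the median of all genes. SMEK1 was at 310, 435 and 352 normalized counts in DMSO and at 322, 295 and 314 in Taxol (-0.22 ± 0.18, 95% interval -0.66 to 0.22). With the median over sgRNAs SMEK1 was at -0.61, lower than SMEK2 at -0.46, and on summed reads it was at -0.04, in each case without a call. PPP4R2 was at 341, 276 and 444 in DMSO and at 352, 316 and 305 in Taxol (-0.10 ± 0.25, 95% interval -0.55 to 0.35), and turned to 0.08 without DMSO 3. PPP4C was at 293, 325 and 262 in DMSO and at 280, 405 and 319 in Taxol (0.18 ± 0.22, 95% interval -0.26 to 0.62), and only 3 of its 10 sgRNAs were lower. The intervals of these 3 genes include both directions, as do those of PPP2CA and SMEK2. Of the 50 sgRNAs, 3 were lower and 0 higher at an unadjusted limma p under 0.05, against 1.55% and 2.04% of all sgRNAs. After adjustment, none of the 7856 sgRNAs passed.

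**Figure D4:**
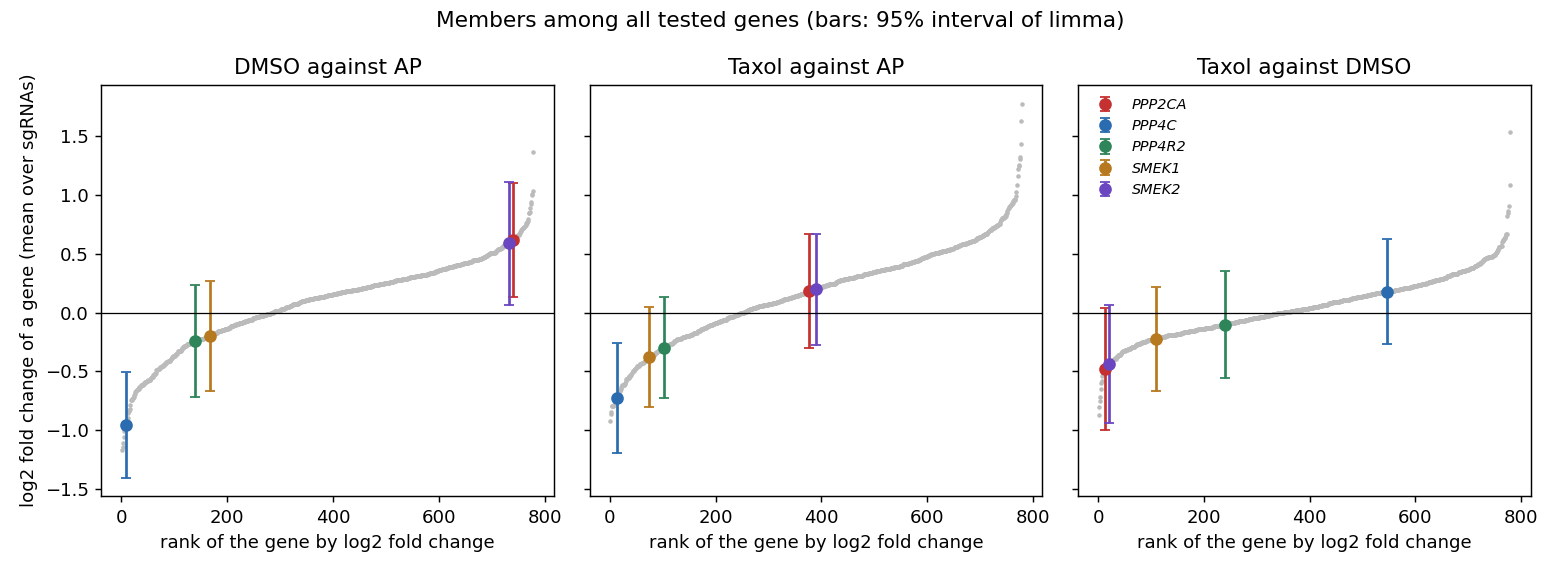
Log2 fold change of a gene (mean over its sgRNAs) against its rank among the 779 genes, with 1 panel per comparison. Grey dots are all genes and coloured points are the 5 genes with the 95% interval of limma. PPP4C was 8th lowest in DMSO against AP and 13th lowest in Taxol against AP, and PPP2CA and SMEK2 were 13th and 20th lowest in Taxol against DMSO.

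The 5 genes were then set against each other within libraries, by the difference of their log2 means. In the table of DMSO and AP, PPP4C minus SMEK2 was 0.41 to 0.48 in the AP libraries and -1.35 to -0.61 in the DMSO libraries, a difference of log2 fold changes of -1.54. For SMEK2 minus SMEK1, the alternative partners of the PP4 core, it was 0.79, and for PPP2CA minus PPP4C it was 1.57. The groups did not overlap for any of these 3 pairs. PPP2CA and SMEK2 differed by 0.03 there, with overlapping groups. An exact permutation test over libraries, two-sided, gave p = 0.1 for the first 3 pairs, which is the smallest it can give with 3 against 2 libraries. The pairs were chosen with the values known, and over the 18 tests made in the 3 comparisons every Benjamini-Hochberg adjusted p was 0.327 or more.

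The genes with the most similar pattern were sought by the root mean square difference of the 3 log2 fold changes over the other 778 genes. The 3 comparisons share libraries, so this is a description of 2 independent contrasts at most. PPP4C was nearest to DMAP1 (0.0119) and WDR77 (0.0141), and PPP4R2 to NFYC (0.00726) and VRK1 (0.0175). SMEK1 was nearest to NAT10 (0.0105) and EXOSC9 (0.0111). PPP2CA and SMEK2 were each among the 2 nearest genes of the other (0.0316), and ARID4B was the nearest of both (0.0314 and 0.00816).

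Related genes were counted from lists, of which only part was in the library. The partners of PP2A and other protein phosphatases had 8 measured members: SET, ANP32A and ANP32B, which are acidic nuclear proteins, the first 2 known as PP2A inhibitors, the phosphatase PPM1G, and the tyrosine phosphatases EYA1 to EYA4. None was called in any comparison, and their median log2 fold change was -0.02 in Taxol against DMSO, 0.39 in DMSO against AP, and 0.32 in Taxol against AP, beside 0.03, 0.15 and 0.20 for all genes. SET was at 0.29 ± 0.34, -0.17 ± 0.23 and 0.17 ± 0.30 in this order, and ANP32A at 0.00 ± 0.31, 0.40 ± 0.22 and 0.45 ± 0.31.

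On the side of the phosphorylation that these enzymes remove, 19 genes of H2AX phosphorylation and its readers were measured. In Taxol against DMSO none was called. BRCA1, which acts in the repair of breaks, was depleted by RRA in Taxol against AP (-0.79 ± 0.33, adjusted exact RRA p = 0.00917), while limma on gene means gave an adjusted p of 0.107 and no call. It was also low in DMSO against AP, without a call (-0.65 ± 0.25, adjusted exact RRA p = 0.179, adjusted limma p = 0.151). Between Taxol and DMSO its log2 fold change was -0.19. The median of the list was 0.02 in Taxol against DMSO, -0.02 in DMSO against AP, and 0.02 in Taxol against AP. Of 22 histone H3 and mitotic kinases, none was called in the 3 comparisons, with medians of -0.08, 0.12 and 0.12.

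The level of PPP4C against AP can be set beside that of genes most cells need. All 12 measured core-essential genes were below 0 against AP in both DMSO and Taxol, with medians of -0.54 and -0.39. Of all genes, 36.7% and 32.3% were below 0. RPL11 and RPS18, proteins of the ribosome, were depleted by RRA at -0.94 ± 0.27 and -1.11 ± 0.21 in DMSO (adjusted exact RRA p = 0.00300 and 0.00421), and at -0.79 ± 0.21 and -0.85 ± 0.19 in Taxol (0.00250 and 0.0122). RAN, the GTPase of nuclear transport, was depleted in Taxol at -0.44 ± 0.15 (adjusted exact RRA p = 0.0452). Its value in DMSO was similar, at -0.42 ± 0.25, without a call (adjusted exact RRA p = 0.128). In Taxol against AP limma on gene means called none of these 3 (adjusted p = 0.0876 for RPL11, 0.0744 for RPS18 and 0.216 for RAN), and in DMSO against AP it called RPS18 (0.0227) but not RPL11 (0.0550). The values of PPP4C, -0.95 and -0.73, were below the median of this list in both comparisons. The difference between PPP4C and the list was not tested.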

How the data were processed

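Per the submitters' processing notes the deposited sgRNA tables came from MAGeCK 0.5.8; for trimming, mapping and genome build the setting is not given in the sources used here. The authors' tables, 1 for each of the 3 comparisons, hold counts already normalized, which are not raw counts, with the values of a group's libraries joined in a cell. Within a cell, values were taken to run from replicate 1 to replicate 3. The second AP value matches no label and was not used, which left out 2 value columns. The authors' fold changes, p-values and gene tables were not used either.

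The log2 of the normalized count plus a pseudocount of 1 was taken, which makes changes of low sgRNAs look smaller, and was tested within a table with limma 3.58.1 (lmFit, eBayes with trend), per sgRNA and on gene means. RRA used the ranks of the moderated statistic, and those of a gene within the lowest or highest 25% were combined. One-sided p-values were computed exactly from the distribution of uniform ranks, with Benjamini-Hochberg adjustment within a direction. They treat sgRNAs as independent, and the spread between libraries enters only through the ranking. Genes with at least 3 sgRNAs were tested. Dividing by a fixed step gave whole reads within 0.1 read for 97.9% to 99.99% of the values of a library. The limma and RRA steps were also run on simulated data. Its noise was drawn independently for each library, so it is no check of the p-values where libraries deviate together.

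Taxol and DMSO libraries of the same number deviated together from their group means (correlations over sgRNAs of 0.170, 0.128 and 0.206 for numbers 1 to 3, against -0.137 to -0.047 for unlike numbers). Deviations within a group cancel out, so the negative values follow from the positive ones and are no separate evidence of pairing. The numbers were taken to pair these samples. Against AP they were taken only as numbers. The main tests used no pairing, which entered only through the replicate block.

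The genes named are the 5 phosphatase genes, ABCB1, SET and ANP32A, any list gene called by either test, and for each phosphatase gene the 2 most similar genes, except 1 list gene that is not reported here. The lists were PP2A and PP4 partners and other protein phosphatases, H2AX phosphorylation and its readers, histone H3 and mitotic kinases, core-essential genes and drug efflux transporters. Of the last, 3 were measured and only ABCB1 was called, in Taxol against DMSO. Genes and lists were chosen with earlier results of these data known. The alternatives were a pseudocount of 10, leaving out sgRNAs with a mean normalized count under 100, centring on non-targeting sgRNAs, the replicate block, all ranks in RRA, the median over sgRNAs and leaving out each library. Chosen after seeing the data were 2 more, limma voom on recovered reads and leaving out the most abundant sgRNA of each gene. The sgRNA sequences were not analysed here.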

Additional observations from a re-analysis of the deposited data

How the results depend on the processing

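The pseudocount of 10, the minimum count of 100 and all ranks in RRA changed no call or direction of the 5 genes. Centring on the non-targeting sgRNAs reversed PPP2CA (-0.34) and SMEK2 (-0.33) in Taxol against AP, and there limma called PPP4C (-1.25, adjusted p = 3.3e-04), PPP4R2 (-0.82) and SMEK1 (-0.90). It gave 150 genes lower and 4 higher by limma in Taxol against AP, 0 higher in DMSO against AP, and 4 enriched by RRA in Taxol against DMSO (3 with low counts left out). With the median over sgRNAs, PPP2CA was at -0.016 in Taxol against AP, and limma called 2 lower and 3 higher there and 3 and 3 in DMSO against AP. Limma voom on summed reads, chosen after seeing the data, gave PPP4C -0.047 and PPP4R2 0.11 in DMSO against AP and PPP4C 0.47 and PPP4R2 0.0066 in Taxol against AP; it called 0 genes lower and 1 higher in DMSO against AP, and 0 higher in both other comparisons. Without the most abundant sgRNA of each gene, limma called 1 lower and 10 higher in Taxol against AP. The cause of these shifts was not tested, apart from the share of reads in 1 sgRNA given above.

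The replicate block gave 1 gene lower and 2 higher by limma in Taxol against DMSO and changed no call of the 5 genes there. Against AP, where 2 numbers are shared and correlations of like numbers were -0.020 to 0.037, the block gave 6 enriched by RRA and 43 lower and 24 higher by limma in DMSO, and 4 enriched by RRA and 16 lower and 48 higher by limma in Taxol, where limma then called PPP4C (-0.87, adjusted p = 0.0350).

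Leaving out 1 library gave PPP4C -1.06 to -0.86 in DMSO against AP and -0.87 to -0.60 in Taxol against AP, and PPP4R2 -0.27 to 0.076 in Taxol against DMSO. Counts by RRA were then 0 to 1 depleted and 1 to 3 enriched in Taxol against DMSO, 1 to 6 enriched in DMSO against AP, and 2 to 36 depleted and 1 to 8 enriched in Taxol against AP. Counts by limma were 0 to 1 lower and 0 to 4 higher, 0 to 20 and 0 to 13, and 0 to 1 and 0 to 8 in the same order. The edgeR test on recovered reads was not run, and limma voom took its place. With 2 AP libraries and Taxol libraries of 260 to 1498 reads per sgRNA, the number of libraries and the depth of Taxol 2 and Taxol 3 limit the precision of all values against AP and DMSO.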
